A study of Oryza sativa Japonica Group with 3 samples.

Results

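The loci described are those of the rice clock genes OsGI, OsPRR73 and OsPRR95, examined in ChIP-seq peak lists of 2 proteins of the evening complex. The loci were chosen by the ELF3 and LUX fold enrichments already known there, and their members are all deposited summits inside a window around each gene on the IRGSP-1.0 build. The windows ran from 4320000 to 4350000 on chromosome 1 for OsGI, from 9755000 to 9785000 on chromosome 3 for OsPRR73 and from 20875000 to 20900000 on chromosome 9 for OsPRR95. They held 2 of the 177 regions of the LUX list and 18 of the 824 regions of the ELF3 list, with 2 of 246 LUX summits and 51 of 1304 ELF3 summits. The RefSeq gene table, which follows another rice assembly, places GI, OsPRR73 and OsPRR95 on the same 3 chromosomes. No gene model on IRGSP-1.0 was used here. The distance of a region from a gene's start, and whether it lies in an exon, an intron or a neighbouring gene, are therefore not given.

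The LUX library was made with an anti-MYC antibody from plants carrying OsLUX genomic DNA with its own promoter and a repeated c-MYC tag; whether these plants kept the native gene is not stated in the labels. The ELF3 library was made with a custom antibody from wild-type Nipponbare, a japonica cultivar, and the input DNA came from the same wild type without precipitation. All 3 libraries were prepared from whole plants of 14 days, grown at 28 °C under a short-day cycle (10 h of light, 14 h of darkness) and harvested at ZT14 (14 h after lights on), as pools of 20 plants per genotype. Precipitations from untagged plants or from elf3-1 plants, a line named in the study's design, were not analysed here. Each group holds 1 library. The loci and the whole lists are therefore set side by side without a test, and every interval covers counting error only.

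In the plant clock, the evening complex joins the DNA-binding protein LUX to the scaffold ELF3 and a small partner, ELF4, and represses its targets from dusk into the night. In Arabidopsis its known targets include GI and members of the PRR family. GI is a large plant-specific protein that passes clock time to the photoperiodic flowering pathway, and OsGI acts upstream of the flowering regulator Hd1 in rice. PRR proteins are pseudo-response regulators that repress the morning genes of the clock. OsPRR73 belongs with OsPRR37 to the group of Arabidopsis PRR7, and OsPRR95 to the group of Arabidopsis PRR5 and PRR9.

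ELF3 was enriched at all 3 loci, each with 1 summit that stood above its neighbours. At OsGI the strongest summit lay at 4343109, where 306 ELF3 tags (95% Poisson interval 273 to 342) stood over an input-based background of 17.7 tags. At OsPRR73 it lay at 9768857, with 289 tags (257 to 324) over the same background of 17.7 tags. At OsPRR95 it lay at 20893157, with 200 tags (173 to 230) over 18.6 tags. The intervals of OsGI and OsPRR73 overlap, and that of OsPRR95 lies below both. As fold enrichment, which the authors' peak caller gives as the scaled tags plus 1 over the scaled background plus 1, the summits reached 16.3 at OsGI (14.5 to 18.2), 15.4 at OsPRR73 (13.6 to 17.2) and 10.1 at OsPRR95 (8.79 to 11.6).

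**Figure D1:**
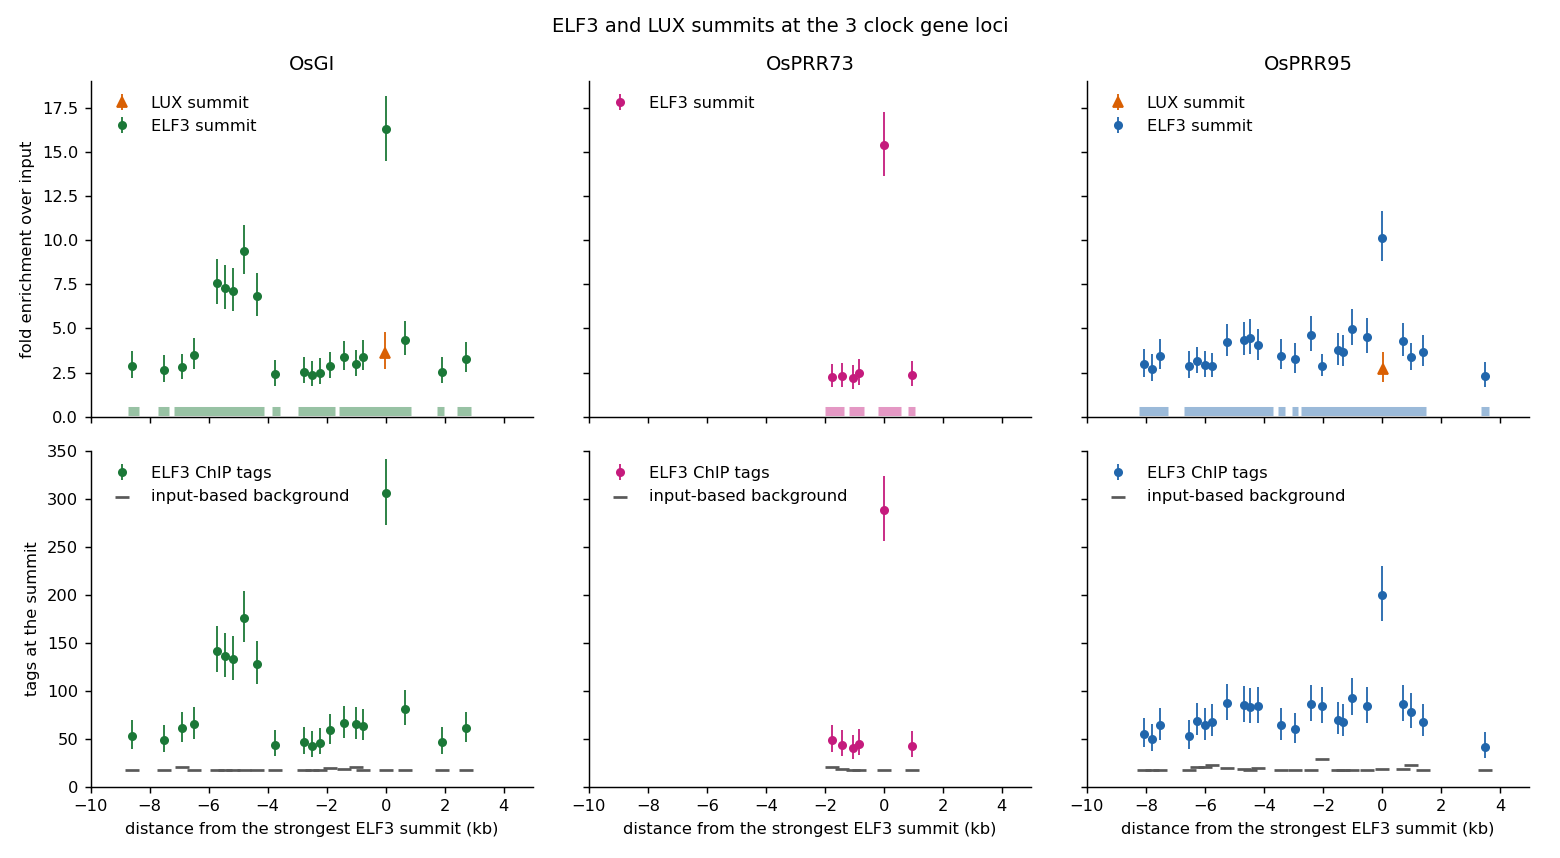
Summits of the 3 loci against their distance from the strongest ELF3 summit in kb, with fold enrichment over input in the upper row and tags at the summit in the lower row. Circles are ELF3 summits and triangles LUX summits with 95% Poisson intervals, dashes the input-based background and bars at the base the ELF3 regions. OsGI shows a second rise about 5 kb from its maximum, OsPRR73 a lone maximum of 289 tags among summits of 40 to 49 tags, and OsPRR95 a broad series of lower summits.

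The loci took different places in the ELF3 list. Ordered by fold enrichment, the strongest region of OsGI shared rank 5 of 824 with 1 other region, and the counting interval of its summit reaches from rank 1 to rank 13. That of OsPRR73 ranked 8 (3 to 15 by its interval), and that of OsPRR95 ranked 50 (32 to 71). Of the 18 regions, 3 had a fold enrichment of 10 or more, 1 at each locus, whereas 6.43% of all ELF3 regions did. The loci were proposed with these enrichments known, so this count carries no weight as evidence. The median fold enrichment was 2.86 over the other 15 regions, 3.06 over all 18 and 3.13 over the whole list. Among single summits, 8 of 51 reached a fold enrichment of 5, close to the 17.6% of all ELF3 summits.

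**Figure D2:**
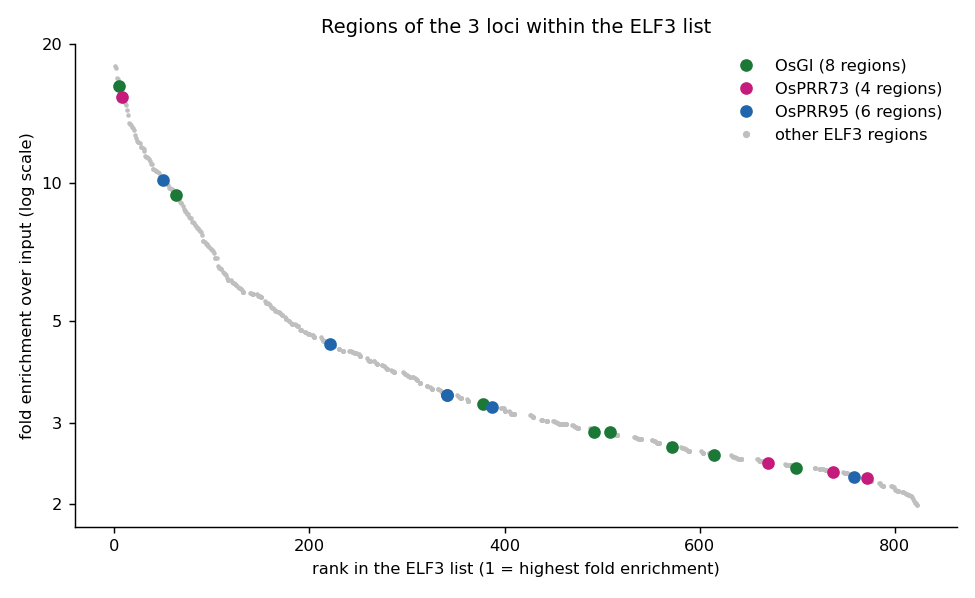
Fold enrichment over input (log scale) of the 824 ELF3 regions against their rank, with the regions of the 3 loci in colour and all others in grey. The strongest regions of OsGI and OsPRR73 stand at ranks 5 and 8, that of OsPRR95 at 50 and the second of OsGI at 63, while the remaining 14 regions spread from rank 221 to 771. A pair of OsPRR95 regions share rank 341 and appear as 1 point.

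OsGI, the flowering and clock regulator, carried 8 ELF3 regions with 21 summits between 4334362 and 4345983, an extent of 11622 bp. The regions covered 73.0% of that extent. The maximum belonged to a region of 2457 bp with 5 summits, from 4341515 to 4343971. Its other summits were far lower, with 63 to 81 tags and fold enrichments of 2.97 to 4.35. A second rise lay 4379 to 5715 bp below the maximum in coordinate, inside the region of 3045 bp from 4335948 to 4338992. There, 5 neighbouring summits held 142, 136, 133, 176 and 128 tags in order of position. The highest of them, at 4338309, was enriched 9.38-fold (8.05 to 10.9) and put this region at rank 63. The interval of that highest summit (151 to 204 tags) overlaps those of the other 4, which also overlap one another. The overlap with the summit of 128 tags (107 to 152) is narrow. Overlap does not show that the counts are equal, and their differences were not tested. Between both rises the caller still listed regions, but their summits held only 43 to 59 tags with 2.34-fold to 2.86-fold enrichment. The remaining 4 regions, of 253 to 469 bp, held 1 summit each with 47 to 61 tags at the outer ends of the cluster.

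OsPRR73, the gene of the PRR7 group, had the smallest and simplest cluster, with 4 regions and 6 summits from 9766872 to 9769908 (3037 bp, 71.2% covered). Its maximum was the lone summit of a region of 780 bp, from 9768675 to 9769454. The other 5 summits held 49, 44, 40, 45 and 43 tags in order of position, with fold enrichments of 2.18 to 2.45. The lowest count of any ELF3 summit in the list is 39 tags, so these summits lie near the limit of what was listed. The maximum was 6.28 times as enriched as the second summit of the cluster. At OsPRR95 this ratio was 2.03 and at OsGI 1.73. Over the 228 ELF3 domains with 2 or more summits (a domain being regions with gaps of at most 5 kb) the median ratio was 1.82. That of OsPRR73 was the highest, followed by 5.88 in a domain on chromosome 1 from 3091011 to 3094248, an order looked up after the clusters had been seen. No listed ELF3 summit lies below 1.84-fold, so the ratio is bounded by the highest enrichment, by which the loci were chosen. A weakly enriched domain therefore cannot reach a high ratio. The median highest enrichment was 3.90-fold over all 502 domains, which include those of a single summit, without a ratio. The median over the 228 compared domains is not given here. In the 2 domains most like OsPRR73, described below, the ratio was 3.97 and 2.47. The share of summits with at least 50% of the highest enrichment was 1 of 6 (16.7%) at OsPRR73. The strongest summit always counts, so this is the lowest share that 6 summits allow. By it OsPRR73 ranked 50 of the 79 domains with 5 or more summits, whose median share was 20.0%. Domains with more summits can take lower shares, so this rank cannot tell whether OsPRR73 stood apart. The region at the maximum was also narrow for its strength: of the 53 ELF3 regions enriched 10-fold or more, 2 were narrower than its 780 bp, and the median width was 1943 bp.

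OsPRR95, of the PRR5 and PRR9 group, had 6 ELF3 regions with 24 summits from 20884929 to 20896787, an extent of 11859 bp of which 75.5% was covered. The maximum stood in the region of 4250 bp from 20890411 to 20894660, which held 10 summits, and the other 9 of these had 68 to 93 tags with 2.86-fold to 4.99-fold enrichment. A second wide region, of 3032 bp from 20886436 to 20889467, held 8 summits with 53 to 87 tags, its highest enriched 4.46-fold (3.56 to 5.51). Apart from the maximum, the enrichment was thus spread over many summits of like height rather than a second rise. Of the 24 summits, 1 reached a fold enrichment of 5, with the next at 4.99, and at OsGI 6 of 21 did. Only that 1 summit (4.17%) had at least 50% of the highest enrichment. By this share OsPRR95 ranked last, 79 of the 79 domains with 5 or more summits. OsGI, with 2 of 21 (9.52%), ranked 75. The strongest summit always counts, so domains with more summits can take lower shares. OsPRR95 had the most summits of all, and its share was the lowest that any domain could take. These ranks therefore depend on the number of summits and do not describe the shape of the clusters alone. The outermost region, from 20896531 to 20896787, was the weakest with 42 tags and 2.29-fold enrichment. ELF3 tags were extended to 202 bp, and the closest summits of this cluster lay 181 bp apart, so close neighbours share tags and are not separate measurements.

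The caller takes no background below its genome-wide value, 17.7 tags for ELF3. That floor, like the one for LUX, depends on the effective genome size set in the call, 210 Mb. A larger size would lower it. The background lay within 0.01 scaled tags of that floor at 35 of the 51 summits (68.6%), and at 59.5% of all ELF3 summits. At those summits the local input did not exceed the floor, and its own level is not given. At OsGI it exceeded that value at 4 of 21 summits and at OsPRR73 at 2 of 6, reaching at most 1.19 times the genome-wide value at both loci. OsPRR95 was less even, with 10 of 24 summits above it. Its highest background, 28.5 tags at 20891116, was 1.62 times the genome-wide value. The 84 ELF3 tags there gave 2.86-fold enrichment, and the 84 tags at 20892651, over 17.7 tags, gave 4.51-fold. Differences in fold enrichment along the OsPRR95 cluster therefore hold the background as well as the ELF3 tags.

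As clusters, OsGI and OsPRR95 were among the largest of the 502 ELF3 domains, and all 3 loci were among the 17.1% of domains with 3 or more regions. By extent OsPRR95 ranked 2, OsGI ranked 3 and OsPRR73 ranked 83, and the median domain measured 562 bp. The 8 regions of OsGI were the most in any domain, shared with 1 other domain, and the 24 summits of OsPRR95 were the most of all. Of the 502 domains, 337 were single regions. The loci were chosen with their enrichments known, so these ranks carry no weight as evidence. Of the 18 regions, 8 held several summits, against 29.1% of all ELF3 regions. In the main call, the nearest region outside lay 325043 bp below and 608115 bp above the OsGI cluster, 28977 bp below and 235349 bp above that of OsPRR73, and 132859 bp below and 12988 bp above that of OsPRR95. The last of these, from 20909776 to 20910115, was enriched 2.09-fold with 48 tags, and the one below OsPRR73, from 9737659 to 9737894, was enriched 3.45-fold with 64 tags. Both lay outside the windows.

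**Figure D3:**
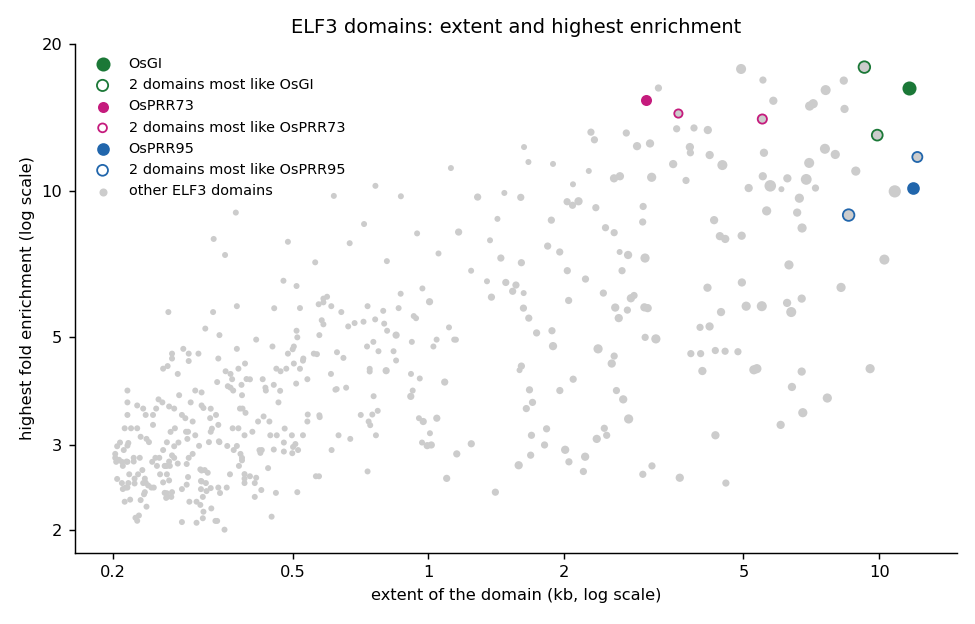
Highest ELF3 fold enrichment against extent in kb for the 502 ELF3 domains, both on log scales, with point area growing with the number of regions. The 3 loci are filled in colour and the 2 domains most like each are ringed. OsGI and OsPRR95 lie at the right edge with 11622 and 11859 bp, and OsPRR73 reached 15.4-fold at 3037 bp.

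Likeness to the loci was measured over the 1 ELF3 library, by distance in log2 highest enrichment, log2 extent and log2 number of regions, each divided by its SD over all domains. Of the 499 other domains, the nearest to OsGI lay on chromosome 8 from 9091858 to 9101127, with 7 regions and 17.95-fold enrichment, and on chromosome 7 from 22313650 to 22323550, with 6 regions and 13.0-fold. The nearest to OsPRR73 were both on chromosome 2, from 5468280 to 5473784 with 4 regions and 14.0-fold, and from 19613546 to 19617131 with 3 regions and 14.4-fold enrichment. OsPRR95 was closest to a domain on chromosome 3 from 3733380 to 3745530, with 5 regions and 11.7-fold, and to one on chromosome 7 from 25711035 to 25719588, with 7 regions and 8.90-fold. Of these 6 domains, the one on chromosome 8 and the one on chromosome 3 held a LUX region. Genes at these places were not identified, as no annotation of this build was used.

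LUX, the DNA-binding member, was listed at OsGI and OsPRR95 and not at OsPRR73. At OsGI the LUX region ran from 4343011 to 4343159, with 46 LUX tags at its summit (33.7 to 61.4) over a background of 11.7 tags and 3.62-fold enrichment (2.68 to 4.79). At OsPRR95 it ran from 20893090 to 20893238, with 39 tags (27.7 to 53.3) over 13.6 tags and 2.69-fold enrichment (1.94 to 3.65). Both regions were 149 bp wide with a single summit, and their tag intervals overlap. In the LUX list OsGI ranked 40 and OsPRR95 ranked 144 of 177. These ranks are loosely held, since the counting intervals reach from rank 3 to rank 146 and from rank 37 to rank 177. Of all LUX regions 8.47% overlapped an ELF3 region, and 1.82% of all ELF3 regions held a LUX region. The 2 at the clock loci are among these, which was known when the loci were proposed.

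LUX and ELF3 maxima nearly coincided at both loci. The LUX summit of OsGI at 4343082 lay 27 bp from the ELF3 summit at 4343109, on its lower side in coordinate. The LUX summit of OsPRR95 at 20893191 lay 34 bp from the ELF3 summit at 20893157, on its upper side. Both distances are shorter than the fragment length of 122 bp to which LUX tags were extended. The ELF3 maximum lay inside the LUX region at both loci, as it did at most of the 15 shared regions. The median distance over those 15 was 42 bp, so near coincidence is not particular to the clock loci. By distance OsGI ranked 4 and OsPRR95 ranked 6 of the 15 shared regions, with the shortest first. At OsGI the LUX summit belonged to the stronger rise, and no LUX region was listed at the rise near 4338309, where ELF3 was enriched 9.38-fold.

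The enrichment of LUX was small beside that of ELF3. Taken above 1, LUX enrichment was 0.172 of ELF3 enrichment at OsGI and 0.185 at OsPRR95, which ranked 10 and 7 of the 15 shared regions. Over those 15 the ratio ranged from 0.116 to 0.567 with a median of 0.185. The lists differ in antibody, in the extension of tags and in the tagged line, so the ratio gives no relative amount of the proteins.

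**Figure D4:**
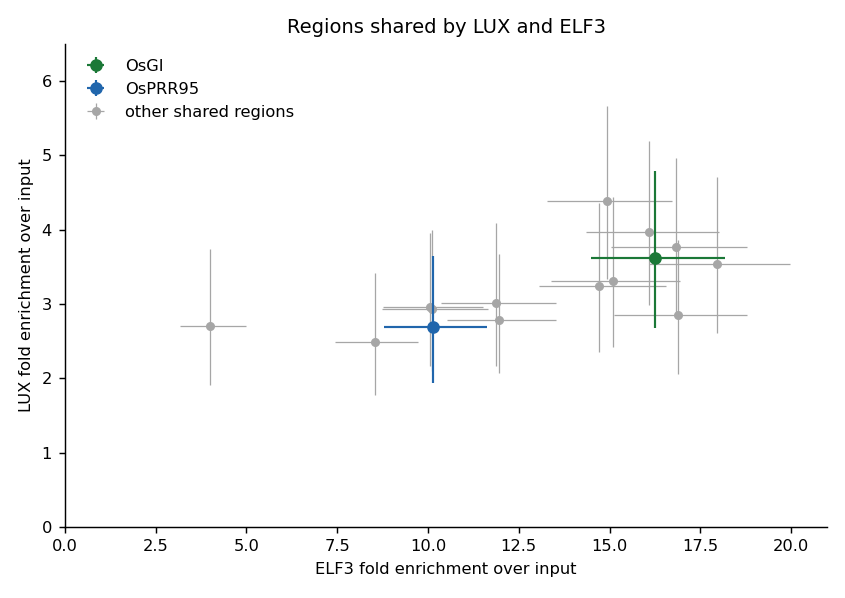
LUX fold enrichment against ELF3 fold enrichment over input at the 15 regions shared by both lists, with 95% Poisson intervals on both axes. OsGI (3.62 for LUX, 16.3 for ELF3) lies with the stronger shared regions and OsPRR95 (2.69 for LUX, 10.1 for ELF3) with the weaker ones, and the LUX intervals of the pair overlap.

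At OsPRR73 no LUX region was listed, although its ELF3 maximum was within counting error of that at OsGI. The nearest LUX region, from 11915461 to 11915626 on the same chromosome, lay 2146.6 kb away. The lists give no LUX value where no peak was listed. At the genome-wide background the lowest LUX summit listed in this call has 33 tags and 2.63-fold enrichment. A lower LUX signal over such a background would therefore be missed by this call. The LUX background at OsPRR73 is not given, and over higher backgrounds LUX summits were listed down to 1.96-fold. OsPRR73 was not alone in this. Of the 8 ELF3 regions enriched as strongly as its maximum or more, itself included, 5 held a LUX region. The 3 that did not include OsPRR73 itself. At or above the strength of OsPRR95, and with OsPRR95 included, 11 of 50 held one.

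The submitters' other peak call, with a lower bound of the model fold of 5 instead of 2, held every ELF3 summit of the main call at these loci. All 51 ELF3 summits of the loci had a summit within 50 bp in it, with median shifts of 1.5 to 3 bp, and fold enrichment in the other call was 0.900 to 1.05 times that in the main call. At OsPRR73 it listed 4 further summits and 1 further region. The LUX regions were not found in it. There the LUX fragment length was 76 bp, the list held 91 LUX regions, and 0 of them lay in the 3 windows. The lowest LUX summit at the genome-wide background in that call has 26 tags and 3.16-fold enrichment. LUX at OsGI and at OsPRR95 thus rests on 1 of the deposited calls.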

How the data were processed

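The data are peak lists, 1 for LUX and 1 for ELF3 in each of 2 calls, with 1 input library as control. BWA, MACS2 and deepTools stand in the submitters' processing notes beside the build, IRGSP-1.0; how reads were aligned is not given in the sources used here. The caller was MACS 2.2.7.1, run at a q-value of 0.05 with 1 tag per position, per the file headers. After filtering, 20173598 LUX, 18357646 ELF3 and 14797701 input tags were left, per the file headers. The deposited pileup is a coverage signal in scaled extended tags, the deposited fold enrichment is a ratio over the local background, and significance was deposited as −log10 of the caller's p and q.

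Whole tags were recovered from every pileup with the scale factors 0.734 (LUX) and 0.806 (ELF3), within 0.01 tags, and the background from pileup and fold enrichment. Lines of equal start and end made up 1 region, which takes the values of its most enriched summit. Regions with gaps of at most 5 kb formed a domain, and overlap meant at least 1 bp. Intervals are exact 95% Poisson intervals. The main call has a model fold lower bound of 2. Tag recovery and joining were tested on simulated data. No test was made, with 1 library a group. Members, lists and alternatives were chosen with earlier results of these data known. Of 11 other clock genes listed for comparison, 4 were found by name in the RefSeq table (assembly ASM3414082v1), but without positions on this build none was examined. Sequences were not used here. The genes named are the 3 of the loci, and the likest domains were taken by the distance given beside them. Values were computed in Python 3.11.15 with scipy 1.17.1, numpy 2.4.6 and pandas 2.3.3, and figures drawn with matplotlib 3.10.9.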

Additional observations from a re-analysis of the deposited data

Results flagged for a closer look

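The other ELF3 call held 1 region in the windows that the main list lacks. It lay at OsPRR73 on chromosome 3 from 9765413 to 9765609, below the main cluster in coordinate, with 52 tags over a background of 19.9 tags and a fold enrichment of 2.52 (95% Poisson interval 1.90 to 3.29). It is given here because it is signal in data that the comparisons do not rest on. Its −log10 q was 4.27.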

How the results depend on the processing

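Over 24 values of the loci, 54 of 66 alternatives stayed within a set limit and 12 did not. The limit was the counting interval, 1.5 times for a count, or 1 ELF3 fragment (202 bp) for a length. Part of the 54 could not have moved. The 0 LUX regions of OsPRR73 stay 0 at a stricter threshold, and summits already at the genome-wide background keep their value. LUX ranks were held against wide intervals, of 3 to 146 at OsGI and 37 to 177 at OsPRR95. The tally is therefore not a measure of stability. With the other peak call the number of LUX regions was 0 at OsGI and 0 at OsPRR95, and the OsPRR73 cluster measured 4494 bp. At a −log10 q of 5 or more, ELF3 regions numbered 5 at OsGI and 1 at OsPRR73, LUX regions numbered 0 at OsPRR95, and the clusters measured 780 bp at OsPRR73 and 9732 bp at OsPRR95. At a −log10 q of 10 or more, ELF3 regions numbered 2 at OsGI and 1 at OsPRR73, and LUX regions 0 at OsGI and 0 at OsPRR95. The cause of these changes was not tested, except that a stricter threshold keeps fewer peaks by construction. Windows widened by 10 kb, joining within 2 or 10 kb, the genome-wide background and ranks by −log10 q or tags moved no value beyond those limits. The widened window of OsPRR95 held 7 ELF3 regions, with the added one from 20909776 to 20910115. That region lay 12988 bp above the cluster and was not joined to it, so the extent stayed at 11859 bp. Joining within 2 or 10 kb could not change an extent, as gaps inside the clusters were at most 1870 bp. LUX enrichment, rank and summit distance have no value in the other call, nor has the OsPRR95 distance at a −log10 q of 5 or more. No paired analysis was possible because each group holds 1 library. The LUX values rest on 46 tags at OsGI and 39 at OsPRR95, which sets the width of their intervals.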

Other observations

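The strongest ELF3 summit lay towards the upper end in coordinate of all 3 clusters, a pattern noticed after the values were seen. At OsGI 17 summits lay below and 3 above it, at OsPRR73 4 below and 1 above, and at OsPRR95 19 below and 4 above. Of the 79 ELF3 domains with 5 or more summits, 39 had more summits below the strongest one (49.4%), 35 had more above and 5 had equal numbers. The orientation of the genes on this build was not used, so the pattern is not related to the direction of transcription.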
